A study of Mus musculus with 13 samples.

Results

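The comparison concerns gamma delta intraepithelial lymphocytes exposed to interferon alpha (IFNa) after an antibody had been directed at their gamma delta T cell receptor (TCR). Its members were 7 of the 13 bulk RNA sequencing libraries of the series, 3 named UC7-IFNa and 4 named IgG-IFNa, and they were chosen by the treatments in the sample titles. All mice carried the WT genotype, and all libraries were made from lymphocytes sorted from the small intestine. The UC7-IFNa mice had been injected intraperitoneally with UC7-13D5 (200 µg), a hamster monoclonal that binds the gamma delta TCR, and the IgG-IFNa mice had received Armenian hamster IgG, the isotype control. Per the labels' protocols the antibodies were given 48 and 24 hours before cell isolation, while the design text words the times as alternatives, so the number of doses per mouse is unclear. Both groups then received 1 µg of IFNa intravenously 5 hours before isolation. The other 6 libraries, 3 IgG-PBS and 3 UC7-PBS, came from mice given phosphate buffered saline (PBS) in place of IFNa, and they gave the same antibody contrast without IFNa. The age and sex of the mice, and whether a library held cells of 1 mouse or of several, are not given in the sources used here, nor is the way in which receptor-bound cells were recognised in the sort. The titles call the libraries biological replicates. The p-values of the main fit set each difference against the spread between libraries within groups, estimated over all 13 libraries.

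Gamma delta intraepithelial lymphocytes lie between the epithelial cells of the gut, where they patrol the barrier and hold large stores of granzymes. Their TCR signals through the CD3 chains, and binding of the receptor is followed by a short-lived programme of early response genes such as Nr4a1, Egr2 and Myc. Antibodies against the gamma delta TCR, UC7-13D5 among them, are known to drive the receptor from the cell surface without removing the cells. Type I interferon acts through a separate receptor, IFNAR, and a STAT and IRF9 complex, which binds a DNA element called ISRE in the promoters of antiviral genes. The comparison asks what receptor binding changes in cells that also receive the interferon signal.

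Promoter sequences are shown for 4 genes on which the results turn: Spp1 and Capg, which were lower with UC7-13D5 also when 1 doubtful library was left out, Arl8a, which was higher, and Bst2, the interferon-stimulated antiviral gene with the smallest p. Each is the 250 bases before an annotated start, 5′ to 3′ on the gene's strand, from RefSeq on GRCm38.p6, and capitals mark matches on either strand to an ISRE-like motif, GAAA and GAAA with 2 free bases between them. The deposited tables use another build, mm39, so these coordinates are not those of the gene positions given further on.
Spp1, start 1, chr5:104434861-104435110, plus strand: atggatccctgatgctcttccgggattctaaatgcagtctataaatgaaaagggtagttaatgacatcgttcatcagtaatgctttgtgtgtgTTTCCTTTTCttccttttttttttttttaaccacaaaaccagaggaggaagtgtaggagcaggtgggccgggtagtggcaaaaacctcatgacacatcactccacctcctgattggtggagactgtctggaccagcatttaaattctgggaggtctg
Spp1, start 2, chr5:104435942-104436191, plus strand: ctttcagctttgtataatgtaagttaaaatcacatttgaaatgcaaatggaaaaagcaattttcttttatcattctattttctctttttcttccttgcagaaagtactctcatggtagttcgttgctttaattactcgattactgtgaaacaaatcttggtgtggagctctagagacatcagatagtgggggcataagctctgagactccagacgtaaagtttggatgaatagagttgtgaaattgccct
Capg, chr6:72549397-72549646, plus strand: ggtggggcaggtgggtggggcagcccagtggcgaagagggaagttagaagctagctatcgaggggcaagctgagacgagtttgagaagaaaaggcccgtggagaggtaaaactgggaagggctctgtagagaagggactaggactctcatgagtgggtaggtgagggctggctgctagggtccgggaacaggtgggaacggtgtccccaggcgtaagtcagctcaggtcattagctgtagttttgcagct
Arl8a, chr1:135146584-135146833, plus strand: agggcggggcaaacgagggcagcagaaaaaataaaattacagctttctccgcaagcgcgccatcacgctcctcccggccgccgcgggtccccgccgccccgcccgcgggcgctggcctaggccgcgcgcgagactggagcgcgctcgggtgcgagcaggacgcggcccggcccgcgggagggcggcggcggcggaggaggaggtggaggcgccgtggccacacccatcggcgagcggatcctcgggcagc
Bst2, chr8:71537473-71537722, minus strand: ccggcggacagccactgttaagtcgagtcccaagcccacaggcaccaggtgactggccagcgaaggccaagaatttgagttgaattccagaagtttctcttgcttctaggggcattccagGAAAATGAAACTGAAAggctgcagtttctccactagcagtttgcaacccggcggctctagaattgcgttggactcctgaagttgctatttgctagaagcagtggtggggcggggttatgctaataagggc
The first Spp1 promoter held 1 match, on the opposite strand, and the Bst2 promoter held 2 overlapping matches, while none was found in the other 3 windows. Neither TGANTCA, an AP-1 motif, nor TGACGTCA, a CRE motif, was found in any of the 5 windows on either strand. Of all 32851 promoters in the table, 2.98% held the ISRE-like motif, 6.75% held TGANTCA and 1.55% held TGACGTCA in these 250 bases. Of the 84 interferon-stimulated antiviral genes tested, 67 had an entry, and 29 of their 88 promoters (33%) held the ISRE-like motif. The G and C content was 75.2% in the Arl8a window and 35.6% to 57.6% in the other 4. A match describes these letters and is not evidence of a bound site.

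The deposited table held 21084 genes, 20370 of them on the autosomes, and 15318 autosomal genes passed the filter on low counts. The 7 libraries summed to 19867201 to 26895876 estimated counts. UC7-IFNa replicate 2 stood apart from the rest. It had the lowest total, 1.14% of its counts on the ribosomal RNA gene Rn18s against 0.0866% to 0.196% in the other 6, a summed level of cytosolic ribosomal protein genes of 24133 CPM (scaled counts) against 9805 to 14285, and correlations of 0.940 and 0.943 across genes with its group mates, which correlated at 0.984 with each other. The IgG-IFNa libraries also differed in sex-linked transcripts: Xist, expressed from the inactive X of females, was at 204, 215, 68.3 and 23.4 CPM in replicates 1 to 4 and at most 0.296 CPM in UC7-IFNa, and 4 Y-linked transcripts summed to 2.15, 1.67, 210 and 320 CPM there and to 327, 132 and 329 CPM in UC7-IFNa. The split was complete with PBS: Xist was at 265 to 345 CPM in IgG-PBS and at most 1.08 CPM in UC7-PBS, and the Y-linked transcripts summed to at most 0.310 CPM and to 299.9 to 328 CPM. In the PBS contrast, and for IgG-IFNa replicates 1 and 2, the antibody and the sex-linked difference cannot be told apart. IgG-IFNa replicates 3 and 4 were nearer to UC7-IFNa, but their Xist also lay above that of every UC7-IFNa library. A comparison with replicates 3 and 4 alone thus lessens the sex-linked difference and does not remove it. Results are given for autosomes, also without UC7-IFNa replicate 2, and for the called genes and several others also against only IgG-IFNa libraries 3 and 4.

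Transcripts that define the labelled cell type were present. Trdc, the constant region of the delta chain, was at 166 to 205 CPM and Trgc1, a gamma chain constant region, at 1597 to 2419 CPM in the 7 libraries. Itgae, which encodes the integrin CD103 of intraepithelial lymphocytes, was at 877 to 2155 CPM, with its lowest value in UC7-IFNa replicate 2, and Cd8a was at 2309 to 3085 CPM. Transcripts listed as markers of other cells were also present, which does not by itself show that those cells were. Of the alpha beta T cell markers, Trbc1 was at 563 to 850 CPM, Trac at 185 to 479 CPM and Cd4 at 1.68 to 5.06 CPM. The 23 goblet and Paneth cell markers summed to 836 to 1651 CPM in IgG-IFNa. In UC7-IFNa replicates 1 to 3 they summed to 556, 1707 and 528 CPM. In bulk RNA, fewer cells of a type and less RNA per cell cannot be told apart.

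With UC7-13D5 under IFNa, 11 autosomal genes passed an adjusted p of 0.05, 6 higher (0.0392% of the genes tested) and 5 lower (0.0326%) than with IgG, together 0.0718%. Higher were Snx20, Rac1, Arl8a, Srsf9, Ctbp1 and 2510039O18Rik, by 1.59 to 2.29 on the log2 scale. Lower were Spp1, Capg, Tmprss6, Ighd and Map2, by differences of -1.28 to -1.91. 1100 genes (7.18%) had an unadjusted p under 0.05, 734 higher and 366 lower, and the libraries of the groups did not overlap for 1037 genes (6.77%), 3.78% higher and 2.99% lower. DESeq2 called 119 genes (0.777%), with all 11 among them. Without UC7-IFNa replicate 2, 2 genes were called, Spp1 and Capg, both lower, or 0.0127% of the 15697 autosomal genes then tested. Against only IgG-IFNa libraries 3 and 4, 2 genes were called, Spp1 and Ighd, both with an adjusted p of 0.0294, and the other 9 kept their sign with adjusted p of 0.0679 to 0.197. The count depended on single libraries: it was 51 without UC7-IFNa replicate 1 and 0 without replicate 3, 42 without IgG-IFNa replicate 1 and 1 without each of IgG-IFNa replicates 2, 3 and 4. It also moved with libraries of the PBS groups, which share the estimate of the spread: 3 and 1 without IgG-PBS replicates 2 and 3, and 1, 2 and 27 without UC7-PBS replicates 1, 2 and 3.

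**Figure D1:**
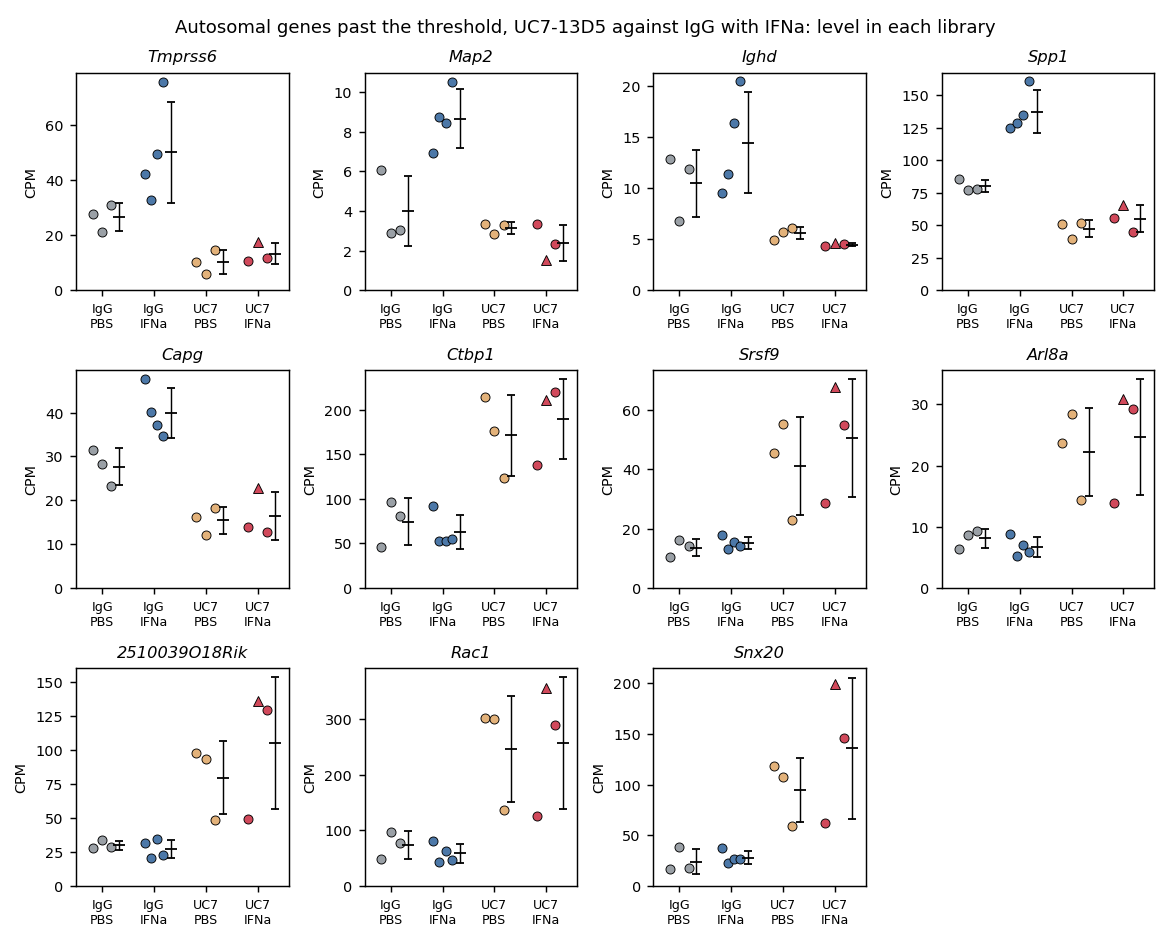
Level in each library (points, CPM, linear axis from 0) of the 11 genes past the threshold, by group, with the group mean and SD as a bar beside the points; the triangle is UC7-IFNa replicate 2. No UC7-IFNa library overlaps an IgG-IFNa library for any of the 11, and the 6 higher genes are lowest in UC7-IFNa replicate 1.

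Spp1 had the smallest p of all autosomal genes. It encodes osteopontin, a secreted phosphoprotein that acts as a cytokine and matrix protein, and lies on the plus strand at chr5:104582984-104588917 of mm39. Its level was 125, 129, 135 and 161 CPM in the 4 IgG-IFNa libraries and 55.3, 65.3 and 45.0 CPM in the 3 UC7-IFNa libraries. Every UC7-IFNa library lay below every IgG-IFNa library, with means of 55.2 ± 10.1 (SD, n = 3) and 137 ± 16.5 CPM (SD, n = 4). The log2 difference was -1.32 (SE 0.16, adjusted p = 0.00679), and without UC7-IFNa replicate 2 it was -1.46 (SE 0.16, adjusted p = 0.000683). Over 27 alternative settings it ran from -1.62 to -1.19 with adjusted p between 3.67e-12 and 0.136, and it passed the threshold in 24. The 3 in which it did not were the omission of UC7-IFNa replicate 3, the fit of the compared groups alone and the replicate block. With PBS, Spp1 was at 85.5, 77.5 and 77.8 CPM after IgG and at 50.8, 39.8 and 52.1 CPM after UC7-13D5. Those groups did not overlap either, and the log2 difference of -0.76 (SE 0.17) did not pass the test (adjusted p = 0.269). Across the 4 groups the highest Spp1 levels were thus in IgG-IFNa, and the ranges of both UC7-13D5 groups overlapped. The difference between the contrasts, the interaction, was -0.56 and not called (adjusted p = 1).

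Capg, a gelsolin-family protein that caps actin filaments (plus strand, chr6:72521374-72539967), showed the same order of groups. Its level was 47.8, 40.1, 37.1 and 34.7 CPM in IgG-IFNa and 13.9, 22.8 and 12.7 CPM in UC7-IFNa. UC7-IFNa replicate 2 lay closest to the control libraries, and the log2 difference went from -1.28 (SE 0.22, adjusted p = 0.0448) to -1.60 (SE 0.20, adjusted p = 0.00316) when it was left out. Capg passed the threshold in 13 of 27 alternatives and kept its sign in all of them, with adjusted p between 1.45e-05 and 0.295. With PBS it was at 31.4, 28.3 and 23.2 CPM after IgG and at 16.1, 12.02 and 18.2 CPM after UC7-13D5, again without overlap, at a log2 difference of -0.84 (SE 0.23) that did not pass (adjusted p = 0.398).

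The other 3 lower genes lost the call without UC7-IFNa replicate 2, with adjusted p of 0.102 to 0.110, and over 27 alternatives it reached at most 0.295. Tmprss6, a membrane serine protease known for restraining hepcidin in the liver (minus strand, chr15:78323867-78352835), was at 42.3, 32.8, 49.3 and 75.4 CPM in IgG-IFNa and at 10.8, 17.5 and 11.6 CPM in UC7-IFNa. All UC7-IFNa values lay well under the control range, at a log2 difference of -1.91 (SE 0.32, adjusted p = 0.0439), or -2.17 without replicate 2. With PBS, Tmprss6 was at 27.7, 21.2 and 30.9 CPM after IgG and at 10.3, 5.89 and 14.7 CPM after UC7-13D5, a difference of -1.37 (SE 0.33, adjusted p = 0.340).

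Ighd, the constant region of the IgD heavy chain (minus strand, chr12:113370224-113379945), was at 9.53, 11.4, 16.3 and 20.5 CPM in IgG-IFNa and at 4.29, 4.59 and 4.51 CPM in UC7-IFNa. The UC7-IFNa libraries were close together and low, at a log2 difference of -1.69 (SE 0.29, adjusted p = 0.0439). Ighd lies within the immunoglobulin heavy chain locus beside Ighm, with which it shares transcripts, so its estimated counts are uncertain, and Ighm was at 212 to 259 CPM in IgG-IFNa and 248 to 377 CPM in UC7-IFNa. The 16 B and plasma cell markers in the table summed to 840 to 930 CPM in IgG-IFNa and to 819, 1392 and 841 CPM in UC7-IFNa replicates 1 to 3. Of the B cell defining genes, Cd79a was at most 1.28 CPM in any of the 7 libraries, and Ms4a1 and Pax5 were not analysed here. Map2, a microtubule-associated protein best known from neurons (plus strand, chr1:66214432-66481743), was at 6.92, 8.76, 8.45 and 10.5 CPM in IgG-IFNa and 3.35, 1.51 and 2.32 CPM in UC7-IFNa. Its log2 difference was -1.84 (SE 0.32, adjusted p = 0.0486) with IFNa and -0.34 with PBS, where its groups overlapped. Map2 and 2510039O18Rik fell outside the rule for named genes and were named after their values were seen.

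The higher genes shared a pattern over the libraries. Snx20, a sorting nexin that binds the selectin ligand PSGL-1 and directs it to endosomes (minus strand, chr8:89353191-89362757), was at 36.8, 22.4, 26.2 and 26.1 CPM in IgG-IFNa and at 61.7, 200 and 146 CPM in UC7-IFNa. Replicate 2 was highest and replicate 1 lowest, and all 3 exceeded the controls, at a log2 difference of 2.29 (SE 0.37, adjusted p = 0.0439), or 1.89 (SE 0.43) without replicate 2. With PBS, Snx20 was at 16.2, 37.8 and 17.2 CPM after IgG and at 118, 107 and 59.0 CPM after UC7-13D5, a difference of 2.00 (SE 0.40, adjusted p = 0.196) with no overlap.

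Rac1, a small GTPase that drives actin-based membrane ruffling (minus strand, chr5:143489389-143513792), was at 80.2, 42.2, 63.0 and 47.0 CPM in IgG-IFNa and at 126, 356 and 289 CPM in UC7-IFNa. Its groups were apart, and its log2 difference was 2.14 (SE 0.36, adjusted p = 0.0439), or 1.82 (SE 0.43) without replicate 2. The UC7-PBS libraries held 303, 300 and 137 CPM and the IgG-PBS libraries 47.2, 97.5 and 77.1 CPM, a difference of 1.74 (SE 0.39, adjusted p = 0.269). Rac2, the Rac gene typical of blood cells, had a difference of 0.52 (SE 0.23, adjusted p = 0.666), which became 0.05 without replicate 2.

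Arl8a, a small GTPase that positions lysosomes along microtubules (plus strand, chr1:135074562-135084008), was at 8.82, 5.19, 7.03 and 5.82 CPM in IgG-IFNa and 13.8, 30.9 and 29.3 CPM in UC7-IFNa. Its difference of 1.87 (SE 0.29, adjusted p = 0.0439) became 1.67 without replicate 2, where its adjusted p of 0.0897 was the smallest of the 6. Srsf9, a splicing factor (plus strand, chr5:115465236-115471140), was at 17.8, 13.0, 15.4 and 14.2 CPM against 28.7, 67.8 and 54.9 CPM, a difference of 1.74 (SE 0.29, adjusted p = 0.0439). Ctbp1, a transcriptional corepressor (minus strand, chr5:33405067-33432339), was at 91.6, 52.2, 52.4 and 55.1 CPM against 138, 210 and 220 CPM, a difference of 1.59 (SE 0.27, adjusted p = 0.0448). In all of these genes UC7-IFNa replicate 1 was the nearest to the controls. 2510039O18Rik, known by a clone name (plus strand, chr4:148025352-148031772), followed them at 31.2, 20.1, 34.4 and 22.9 CPM against 49.0, 136 and 130 CPM, a difference of 1.95 (SE 0.31, adjusted p = 0.0439). None of the 6 was called without replicate 2, with adjusted p from 0.0897 to 0.365. Over 27 alternatives the largest adjusted p was 0.309 for Snx20 and 0.481 for Ctbp1, the lowest and highest of the 6, and each passed in 10 or 11 of them, with no change of sign. Of the 11 called genes, 4 lie on chromosome 5 (Spp1, Rac1, Srsf9 and Ctbp1), which holds 7.02% of the autosomal genes tested. This chromosome was picked out after the calls were seen. At an unadjusted p under 0.05 it held 54 of the 734 higher genes and 19 of the 366 lower genes, close to its share.

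The antibody contrast with PBS shares no library with that under IFNa, but in it every IgG library was high in Xist and every UC7-13D5 library high in Y-linked transcripts, so that there the antibody and the sex-linked difference cannot be told apart. It called no autosomal gene with edgeR, with 766 (5%) at an unadjusted p under 0.05, and 62 with DESeq2. All 11 genes called under IFNa had the same sign with PBS, and for 10 of them, all but Map2, the PBS groups did not overlap either, while 12.4% of all autosomal genes had no overlap there, 6.64% higher and 5.8% lower. Of the 734 genes higher under IFNa at an unadjusted p under 0.05, 553 (75.3%) were also higher with PBS, and of the 366 lower, 270 (73.8%) were also lower, against 57.7% of the same sign over all autosomal genes. Without UC7-IFNa replicate 2 these shares were 78.6%, 67.6% and 54.2%. The interaction of antibody and IFNa called no gene with edgeR, with 486 (3.17%) at an unadjusted p under 0.05, and 3 with DESeq2, so no gene is shown by edgeR to respond to the antibody differently with and without IFNa.

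**Figure D2:**
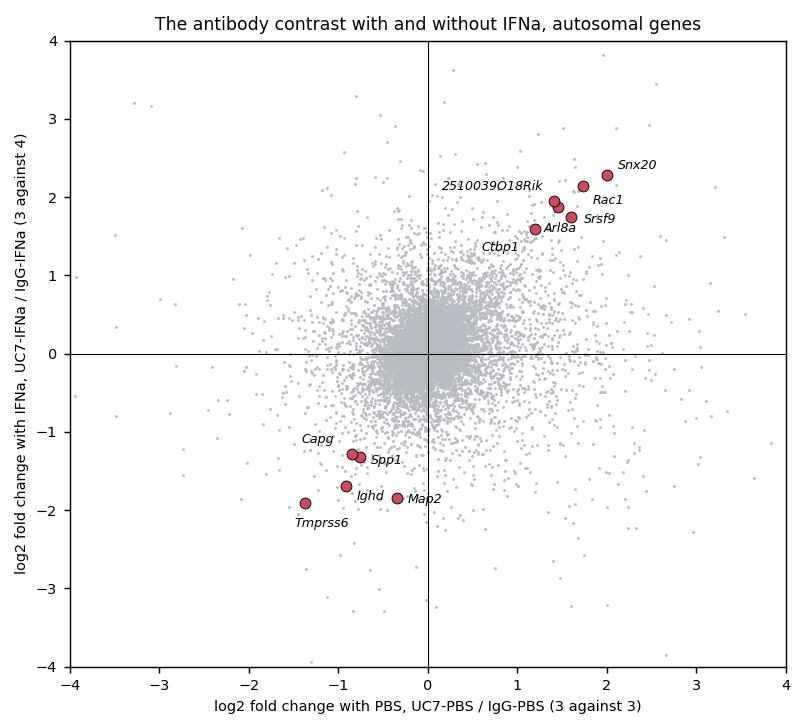
Log2 fold change of UC7-13D5 over IgG with PBS (horizontal) and with IFNa (vertical) for the autosomal genes tested (grey; 27 lie outside the axes), with the 11 called genes in red. The 6 higher genes lie above 1 with PBS and the 5 lower genes at -0.34 or less.

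Interferon-stimulated antiviral genes, such as the Ifit, Oas and Mx families, were mostly higher with UC7-13D5 under IFNa, but none passed the test with all libraries. Of 84 tested members of the list, 72 had a positive difference, with a median of 0.26 on the log2 scale against 0.01 over all autosomal genes. At an unadjusted p under 0.05, 21 were higher and none lower, where 4.79% of all autosomal genes were higher and 2.39% lower. Without UC7-IFNa replicate 2 the median was 0.40, with 76 positive, 37 higher and 1 lower at an unadjusted p under 0.05, where 3.19% of all autosomal genes were higher and 2.87% lower. Against only the IgG-IFNa libraries 3 and 4 it was 0.41, and over 27 alternatives it ran from 0.17 to 0.59. Members were called higher in 2 of them. With the male share of sex-linked transcripts as a covariate and UC7-IFNa replicate 2 left out, 4 were called, among 41 autosomal genes called. Against only IgG-IFNa libraries 3 and 4 with that replicate left out, 2 were called, among 27 autosomal genes called. The latter setting was added after seeing the data. With PBS, where the cells had received no IFNa, the median was -0.13 and 23 of the 84 were positive.

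Bst2, or tetherin, which holds budding virus at the membrane (minus strand, chr8:71986899-71990101), was at 78.5, 78.3, 96.1 and 65.6 CPM in IgG-IFNa and at 116, 172 and 110 CPM in UC7-IFNa. Its groups did not overlap, but its log2 difference of 0.73 (SE 0.20) did not pass (adjusted p = 0.262), and it was 0.49 without replicate 2. With PBS it was at 23.7 to 26.0 CPM after IgG and 15.7 to 27.8 CPM after UC7-13D5. Mx1, an antiviral GTPase, was at 2.53, 3.45, 4.42 and 1.42 CPM against 6.74, 6.56 and 6.06 CPM, a difference of 1.13 (SE 0.37, adjusted p = 0.449), and replicate 2 was in the middle of its group. Irf7, the transcription factor that amplifies interferon production, was at 366, 385, 353 and 380 CPM against 523, 378 and 510 CPM, with replicate 2 alone inside the control range. Ifit3, which recognises foreign RNA with its family members, had 49.9, 63.9, 47.7 and 33.3 CPM against 79.3, 37.2 and 76.2 CPM, again with replicate 2 among the controls. The differences were 0.34 (SE 0.16) for Irf7 and 0.40 (SE 0.28) for Ifit3, and 0.46 and 0.66 without replicate 2. For Ifit3 the difference with PBS was -1.07 (SE 0.34, adjusted p = 0.550) and the interaction 1.47 (adjusted p = 1).

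Further members varied in how much they leaned on replicate 2. Ly6e, an antiviral surface protein, had a difference of 0.78 that became 0.36 without it, and Ube2l6, the conjugating enzyme for ISG15, went from 0.61 to 0.33. Lgals3bp, a secreted galectin-binding protein, stayed at 0.61 and 0.58. Ifit1 and Isg15, which encodes the ubiquitin-like modifier, were at 0.05 and 0.24 with overlapping groups, and both changed sign in at least 1 alternative. Usp18, the protease that removes ISG15 and damps IFNAR signalling, was at 7.78 to 13.6 CPM in IgG-IFNa and 13.6 to 18.8 CPM in UC7-IFNa, a difference of 0.60 (SE 0.26, adjusted p = 0.659). Of the 18 interferon-inducible GTPases tested, which attack the vacuoles of intracellular microbes, none passed, 7 were positive, and the median of -0.08 became 0.12 without replicate 2. At an unadjusted p under 0.05, 0 were higher with all libraries, where 4.79% of all autosomal genes were higher. Without replicate 2, 5 were higher, where 3.19% of all autosomal genes were. Igtp and Irgm1 stood at 0.19 and 0.18, and at 0.26 and 0.34 without replicate 2. MHC class I processing genes had a median of 0.16 over 25 genes and 0.04 without replicate 2, and Psmb8, an immunoproteasome subunit, went from 0.56 to 0.18.

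**Figure D3:**
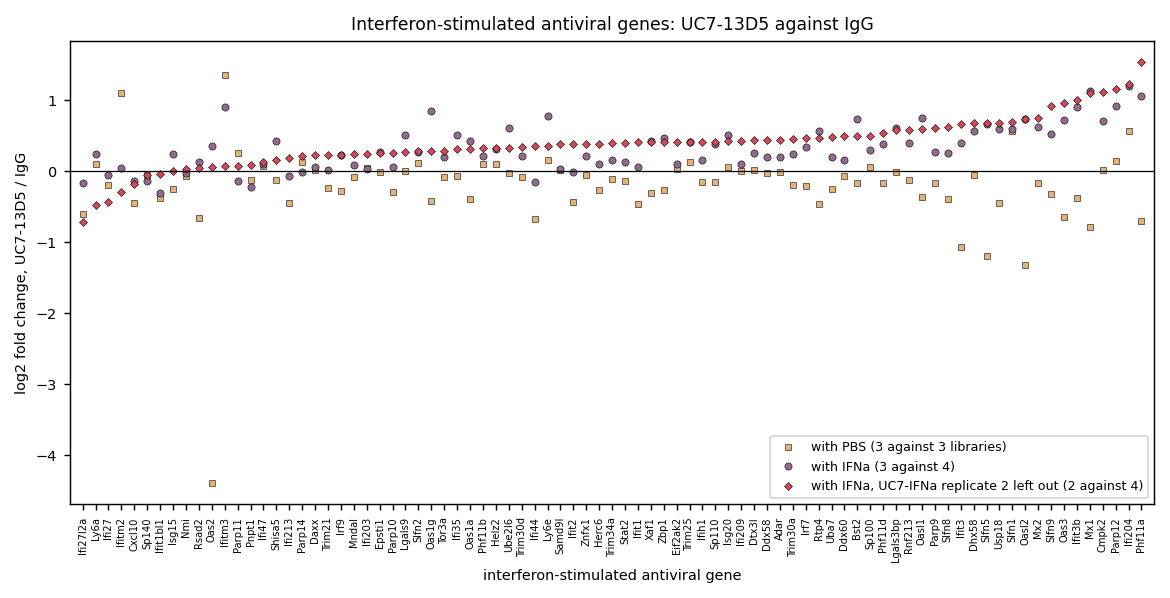
Log2 fold change of UC7-13D5 over IgG for 83 of the 84 tested interferon-stimulated antiviral genes, with PBS, with IFNa and with IFNa without UC7-IFNa replicate 2, ordered by the last. Of the genes plotted, 71 lie above 0 with IFNa, 75 without replicate 2, and 23 with PBS.

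Genes of the TCR itself showed no called difference. None of 9 TCR constant region and CD3 genes passed, and 7 were positive. Trdc was at 166, 175, 180 and 195 CPM in IgG-IFNa and at 184, 205 and 185 CPM in UC7-IFNa, a log2 difference of 0.09 (SE 0.13, adjusted p = 0.860) with overlapping groups. Trgc2, another gamma chain constant region, was at 935, 919, 848 and 803 CPM against 1071, 1191 and 1039 CPM. Those groups did not overlap, and its difference was 0.33 (SE 0.12, adjusted p = 0.545). Cd3e was highest in UC7-IFNa replicate 2, at 1672 CPM against 914 and 882 CPM in its group mates, and its difference of 0.30 became -0.08 without it. The 38 tested genes of proximal TCR signalling had a median of 0.05 with none called, and Fyn, a Src family kinase, was at 434, 260, 241 and 292 CPM against 539, 444 and 594 CPM, a difference of 0.78 (SE 0.24, adjusted p = 0.380).

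Genes that follow TCR triggering leaned lower, with no member called. Of 38 tested early response genes 11 were positive, and the median was -0.17. At an unadjusted p under 0.05, 7 were lower and 1 higher, where 2.39% of all autosomal genes were lower and 4.79% higher. Without UC7-IFNa replicate 2 the median was -0.36 with 5 positive. At an unadjusted p under 0.05, 11 were then lower and 1 higher, where 2.87% of all autosomal genes were lower and 3.19% higher. Against only IgG-IFNa libraries 3 and 4 the median was -0.05, or -0.25 with 7 of 37 positive when replicate 2 was also left out. With PBS it was -0.21. Nfkbid, an atypical inhibitor protein of NF-kB (plus strand, chr7:30121157-30128172), was at 129, 125, 80.9 and 77.4 CPM in IgG-IFNa and at 55.5, 44.6 and 40.3 CPM in UC7-IFNa. Its groups did not overlap, and the difference of -1.14 (SE 0.23, adjusted p = 0.0778) was -0.76 against IgG-IFNa libraries 3 and 4. Myc, the growth-promoting transcription factor, was at 76.4, 104, 56.7 and 61.9 CPM against 48.2, 52.2 and 41.2 CPM, at -0.66 (SE 0.21, adjusted p = 0.400) and -0.33 against those 2 libraries.

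The 2 IgG-IFNa libraries low in Y-linked transcripts carried the highest values of several early genes. Nr4a1, the orphan receptor widely used as a reporter of TCR signalling, was at 453 and 496 CPM in IgG-IFNa replicates 1 and 2 and at 253 and 238 CPM in replicates 3 and 4, with 272, 286 and 233 CPM in UC7-IFNa. Its difference was -0.45 (SE 0.22, adjusted p = 0.698), and 0.10 against IgG-IFNa libraries 3 and 4. Cd69, the early activation and retention antigen, showed the same split, at 522 and 556 CPM against 331 and 331 CPM among the controls and 343, 408 and 294 CPM in UC7-IFNa, and its difference of -0.32 became 0.07. Ifng, the type II interferon, was at -0.22 and 0.07 in the same fits. The part of the sex-linked difference in these values was not tested. Dusp2, a nuclear phosphatase of ERK, went the other way: it was at 20.02, 8.87, 11.6 and 8.92 CPM in IgG-IFNa and 28.4, 55.5 and 40.7 CPM in UC7-IFNa, a difference of 1.75 (SE 0.33, adjusted p = 0.0641), and 1.30 (SE 0.35) with PBS. Nfkbiz, a nuclear NF-kB cofactor, was at 46.2, 47.9, 44.1 and 54.4 CPM against 34.3, 27.5 and 31.2 CPM, at -0.64 (SE 0.18, adjusted p = 0.300).

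Transcription factors of T cell quiescence and identity included several that came close to the threshold. Of 23 recirculation and quiescence genes none was called, and 6 were higher and 0 lower at an unadjusted p under 0.05, with the same numbers without UC7-IFNa replicate 2. Over all autosomal genes 4.79% were higher and 2.39% lower, and without that replicate 3.19% and 2.87%. The list's median was 0.26 with all libraries and 0.05 without that replicate. Gfi1, a transcriptional repressor of lymphoid and myeloid differentiation (minus strand, chr5:107864523-107873903), was at 44.7, 22.3, 33.3 and 30.0 CPM in IgG-IFNa and at 68.4, 68.4 and 76.2 CPM in UC7-IFNa. All 3 UC7-IFNa libraries were close together above the controls, at a difference of 1.12 (SE 0.20, adjusted p = 0.0524), or 1.14 without replicate 2. With PBS it was at 31.9, 44.4 and 39.3 CPM against 65.3, 85.8 and 63.8 CPM, at 0.90 (SE 0.22, adjusted p = 0.340).

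Foxo1, which maintains quiescence and homing receptors in T cells (plus strand, chr3:52175757-52260643), was at 199, 163, 271 and 267 CPM against 307, 684 and 578 CPM. Its groups did not overlap, and its difference was 1.22 (SE 0.26, adjusted p = 0.0974), 0.97 without replicate 2 and 1.43 (SE 0.29) with PBS. Against only IgG-IFNa libraries 3 and 4 it was 0.96 (SE 0.31), and 0.71 (SE 0.30) with replicate 2 also left out. Klf2, a Foxo1 target that controls egress receptors, was at 1.19, 1.67, 0.671 and 1.49 CPM against 2.72, 9.76 and 2.83 CPM, and its difference of 2.00 (SE 0.45, adjusted p = 0.122) became 1.12 without replicate 2. Cd44, the hyaluronan receptor of activated T cells, had a difference of 0.65 (SE 0.20, adjusted p = 0.357). Bcl11b, the T lineage commitment factor (minus strand, chr12:107876662-107969862), was at 81.1, 70.8, 57.9 and 45.7 CPM against 112, 124 and 125 CPM, a difference of 0.91 (SE 0.18, adjusted p = 0.0662), or 0.88 without replicate 2. Its IgG-PBS libraries held 87.5, 106 and 109 CPM and its UC7-PBS libraries 137, 138 and 109 CPM, at 0.34 (SE 0.19).

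**Figure D4:**
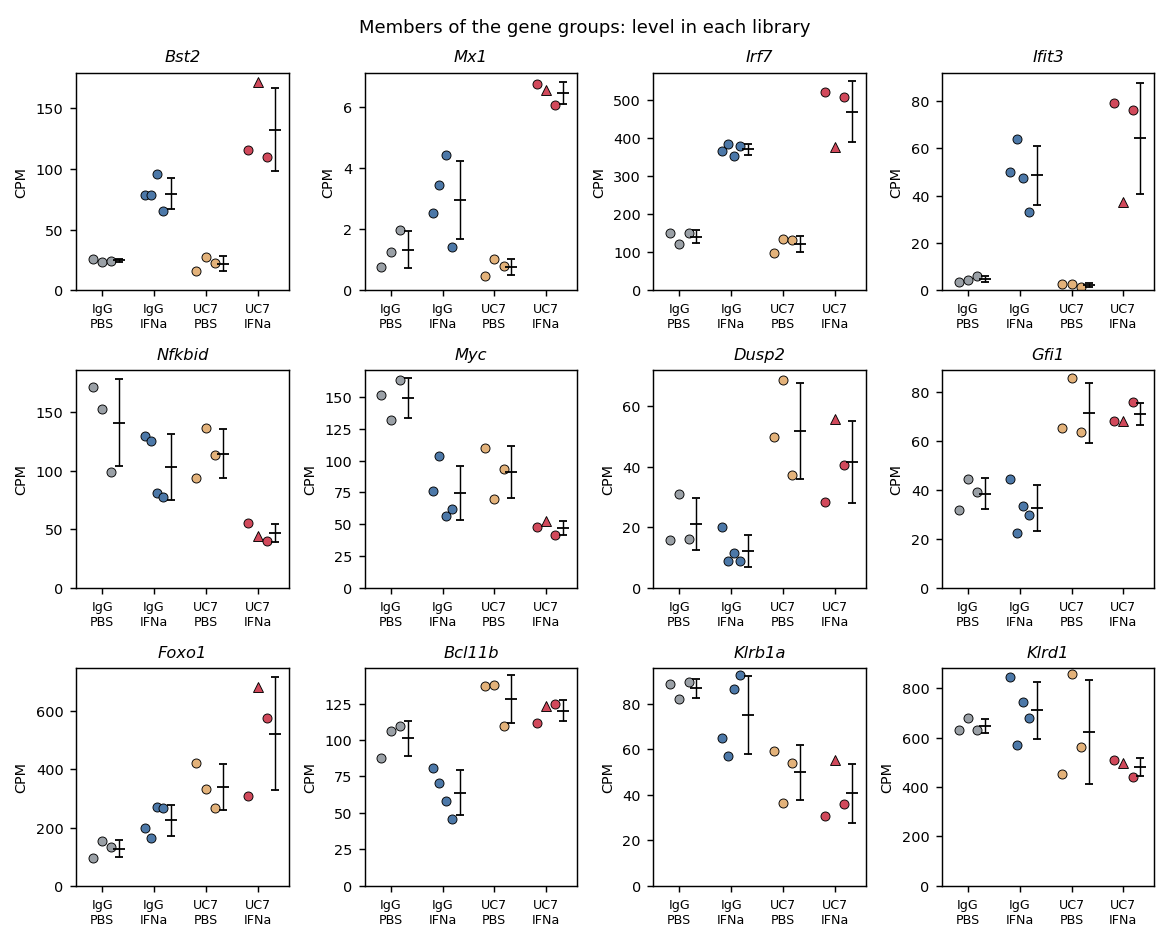
Level in each library (points, CPM, linear axis from 0) of 12 members of the gene groups, none of them past the threshold, by group with the mean and SD; the triangle is UC7-IFNa replicate 2. Gfi1 and Bcl11b lie above the IgG-IFNa range in all 3 UC7-IFNa libraries, Nfkbid and Klrb1a below it, and for Irf7 and Ifit3 replicate 2 lies within it.

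Of 25 natural killer receptors none was called, 14 were positive and the median was 0.08, or -0.08 without replicate 2. At an unadjusted p under 0.05, 6 were lower and 1 higher, where 2.39% of all autosomal genes were lower and 4.79% higher. Without replicate 2 there were 7 and 0, where 2.87% of all autosomal genes were lower and 3.19% higher. Klrb1a, an NKR-P1 receptor (minus strand, chr6:128586190-128600497), was at 64.8, 56.9, 86.7 and 92.5 CPM in IgG-IFNa and at 30.8, 55.3 and 35.8 CPM in UC7-IFNa. Replicate 2 lay just under the lowest control, and the difference of -0.89 (SE 0.23, adjusted p = 0.221) became -1.19 (SE 0.21) without it. Klrb1, another NKR-P1 receptor, was at 27.5, 26.6, 30.0 and 34.6 CPM against 19.97, 14.9 and 19.3 CPM, at -0.72 (SE 0.20, adjusted p = 0.292). Klrd1, or CD94, which pairs with NKG2 chains, was at 847, 570, 745 and 678 CPM against 508, 498 and 439 CPM, at -0.56 (SE 0.19, adjusted p = 0.485), and at -0.05 with PBS. Klrc1, its inhibitory partner NKG2A, had a difference of 0.44 (SE 0.34) with IFNa, with overlapping groups, and of 1.69 (SE 0.37, adjusted p = 0.269) with PBS, where the groups were apart.

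No cytotoxic effector gene passed the test. Over the 26 tested, the median was 0.04, and 4 were higher and 1 lower at an unadjusted p under 0.05, where 4.79% of all autosomal genes were higher and 2.39% lower. Without UC7-IFNa replicate 2, 1 was higher and 1 lower, where 3.19% of all autosomal genes were higher and 2.87% lower. Gzmb, the granzyme that triggers caspases, was at 12356 to 13966 CPM in IgG-IFNa and 13193 to 13545 CPM in UC7-IFNa, a difference of 0.02 (SE 0.12). Gzma, a tryptase of the same granules, was at 25840 to 36026 CPM against 26827, 47294 and 26962 CPM, so that its difference of 0.17 became -0.17 without replicate 2. Ccl5, a chemokine stored by cytotoxic lymphocytes, was likewise set by that library, at 7209, 21422 and 8731 CPM in UC7-IFNa against 6164 to 9017 CPM, with a difference of 0.79 that became 0.14. Lamp1, the lysosomal membrane protein exposed on degranulation, had 118, 51.1, 48.5 and 44.8 CPM against 151, 269 and 251 CPM, a difference of 1.77 (SE 0.36, adjusted p = 0.0746), or 1.60 without replicate 2. Its order of UC7-IFNa libraries was that of Snx20 and Rac1, with replicate 1 lowest and replicate 2 highest.

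Among other genes of the lists that hold the called genes, 1 of 32 sorting nexin and endosomal recycling genes was higher, Snx20, and none lower. Snx9, which shapes membranes in endocytosis, was at 30.4, 26.5, 22.6 and 34.6 CPM against 17.8, 9.87 and 11.2 CPM, at -1.13 (SE 0.28, adjusted p = 0.173), and Snx18, its close relative, stood at 0.52 (SE 0.22). Of 25 cytokine, chemokine and repair genes, Spp1 alone was called, and the median of 0.04 became -0.51. Pdgfb, a growth factor subunit of that list, was at -0.86 with and without replicate 2.

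Several lists changed sign with UC7-IFNa replicate 2. The 75 cytosolic ribosomal protein genes had a median of 0.29 with 70 positive, and -0.25 with 0 positive without it. Nuclear genes of oxidative phosphorylation went from 0.27 to -0.15 and clustered histones from 0.46 to -0.20. Goblet and Paneth cell markers went from 0.03 to -1.01, against 1.52 with PBS, and absorptive enterocyte markers from 0.34 to -0.17, against 0.66 with PBS. No list of ribosomal, respiratory, histone or epithelial genes had a called member. Heat-shock chaperones kept a negative median, -0.17 and -0.38, as they did with PBS at -0.82.

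**Figure D5:**
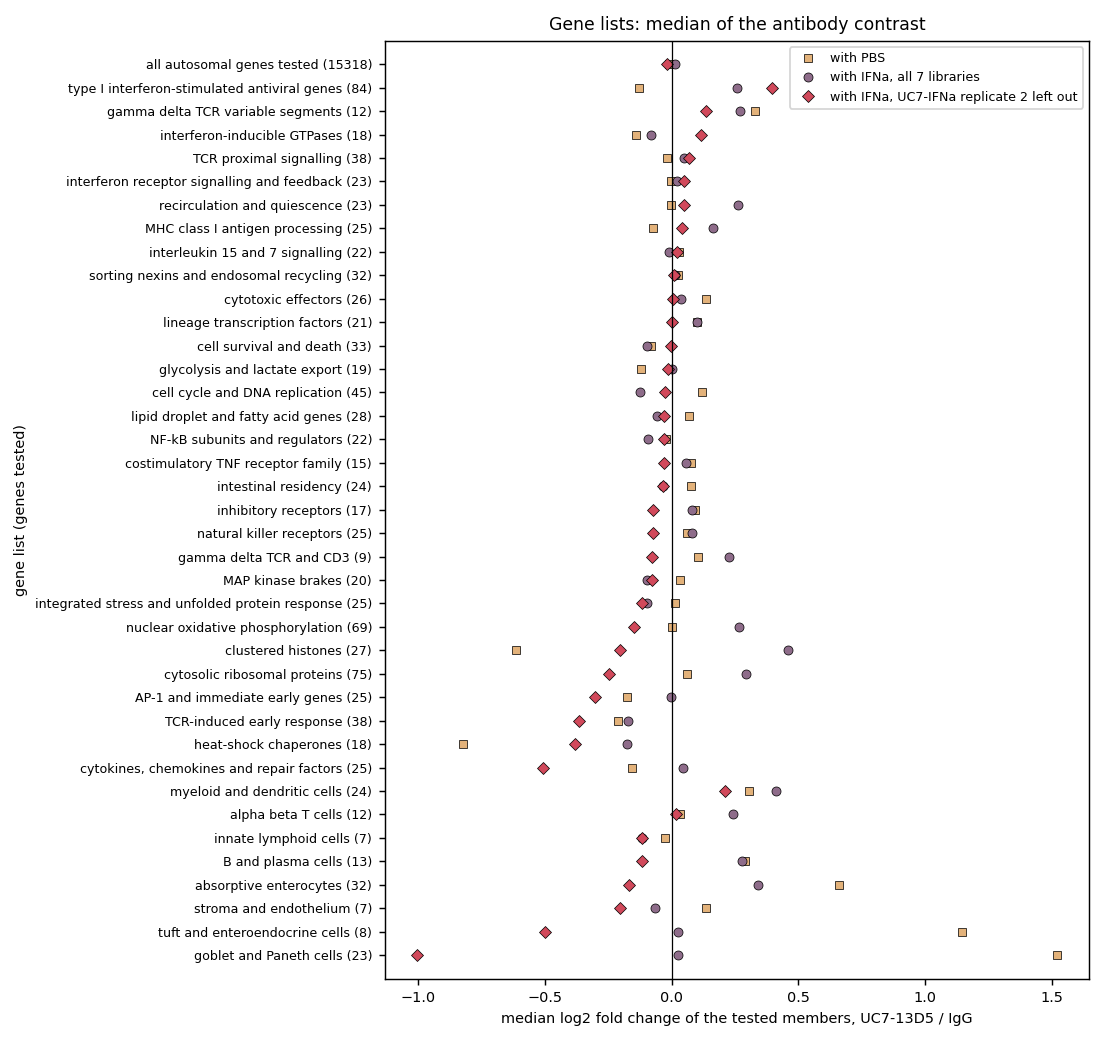
Median log2 fold change of UC7-13D5 over IgG for the tested members of 38 lists with at least 5 tested genes, and of all autosomal genes, with PBS, with IFNa and with IFNa without UC7-IFNa replicate 2. The antiviral gene list has the highest median without replicate 2, 0.40, and goblet and Paneth cell markers the lowest, -1.01.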

How the data were processed

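Per the labels' protocols, RNA of the sorted lymphocytes was extracted with RNeasy columns and made into SMART-Seq HT libraries. The deposited table held estimated counts per gene, of which 37.3% of values were not whole. The submitters' processing notes name Partek, STAR 2.7.8a, DESeq2 and mm39, with no roles given. Libraries were mapped to groups by their titles. Counts were rounded and fitted with edgeR 4.0.16 in R 4.3.3 (robust quasi-likelihood, TMM scaling, filterByExpr with a minimum count of 10) over all 13 libraries with 1 coefficient per group, and p-values were adjusted by Benjamini-Hochberg over the genes tested, with a threshold of 0.05. Chromosomes 1 to 19 are reported, and Xist was the only call elsewhere, at a log2 difference of -9.28 (adjusted p = 0.00679) under IFNa. CPM values are scaled by TMM, except those of sex-linked transcripts. Standard errors were derived from the F statistic. Alternatives used DESeq2 1.42.0, limma 3.58.1 and other samples, filters and covariates.

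Genes were named by rule: up to 15 called in each direction, with all libraries or without UC7-IFNa replicate 2, with a mean log2 CPM not under 3, groups that did not overlap and no clone name, up to 4 members of each of 31 pathway and 10 marker lists by smallest p, and a set of genes of the receptor, interferon and effector programmes. Genes that check the identity of the cells stand outside the rule. The comparison and the lists were chosen with earlier results of these data known. Same-numbered libraries did not deviate together (correlations of 0.0147, -0.208 and -0.161), so the numbers were not taken as pairs. No pair of libraries within a group agreed within sampling noise, and pairs across groups were not examined. Totals were 19867201 to 26895876 estimated counts in the 7 libraries. Gene positions are start and stop as deposited, on mm39.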

Additional observations from a re-analysis of the deposited data

Results flagged for a closer look

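In the group of 4 IgG-IFNa libraries, the highest or lowest library was compared with the other 3, and it was called far from them when its gap to the nearest exceeded Dixon's critical share of the group's range. Chance flags about 1 in 20 groups, and 5 of the 55 sets of values examined were flagged. Ctbp1, called higher with UC7-13D5, was at 91.6 CPM in replicate 1 and at 52.2 to 55.1 CPM in the others. Lamp1 was at 118 CPM in replicate 1 and at 44.8 to 51.1 CPM in the others. Cd3e was lowest in replicate 1, at 811 CPM against 975 to 992 CPM. Irgm1 was highest in replicate 2, at 142 CPM against 117 to 121 CPM. The share of counts on Rn18s was highest in replicate 3, at 0.196% against 0.0906% to 0.107%. Groups of 3, UC7-IFNa among them, were not examined in this way.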

How the results depend on the processing

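With UC7-13D5 under IFNa, the 11 calls ranged from 0 to 51 when each of the 13 libraries was left out in turn. Other settings gave 119 with the DESeq2 Wald test, 0 with only the compared groups in the fit, 4 with the male share as a covariate, 41 with that covariate and UC7-IFNa library 2 left out, 2 with only IgG-IFNa libraries 3 and 4, 27 with those libraries and UC7-IFNa library 2 left out (added after seeing the data), and 35 with limma voom quality weights. With the replicate number as a block, 0 genes were called; the numbers do not pair the libraries. Size factors, filters, an autosomal fit and non-robust estimation kept the count within 1.5 times. With PBS the 0 calls became 0 to 3 on leaving out a library, 62 with DESeq2, 13 with only the compared groups, 18 with voom weights and 16 with IgG-IFNa libraries 3 and 4 and library 2 left out. The interaction's 0 calls became 0 to 1, 3 with DESeq2 and 3 with that last setting.

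The 11 called genes kept their sign in all 27 alternatives. Signs reversed for genes that were not called. Leaving out a library gave -0.27 to 0.41 for Ifit1, -0.0025 to 0.35 for Isg15, -0.076 to 0.46 for Cd3e, -0.17 to 0.30 for Gzma and -0.0063 to 0.052 for Gzmb, and the replicate block gave -0.14 for Ifit1. The male share covariate gave 0.26 for Nr4a1, 0.19 for Cd69, 0.19 for Ifng, -0.0042 for Trdc and -0.087 for Gzmb. With it and UC7-IFNa library 2 left out, the values were 0.20 for Nr4a1, 0.047 for Cd69, -0.063 for Trdc, -0.16 for Cd3e, -0.22 for Gzma and -0.091 for Gzmb. Against only IgG-IFNa libraries 3 and 4 they were 0.10 for Nr4a1, 0.068 for Cd69, 0.069 for Ifng and -0.062 for Gzmb, and with library 2 also left out 0.032 for Nr4a1, -0.033 for Trdc, -0.14 for Cd3e, -0.23 for Gzma and -0.064 for Gzmb. Voom weights gave -0.00440 for Cd3e and -0.11 for Gzma, only the compared groups without library 2 gave -0.069 for Cd3e and -0.16 for Gzma, and no filter gave -0.00108 for Gzmb. The cause of these changes was not tested.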
